A study of Mus musculus with 12 samples.

Results

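The podosome and actin ring genes are a set of 37 mouse genes, out of 55414 gene identifiers counted. They were chosen by name for what their products are known to do, with earlier results of these data known. They encode actin and its turnover factors, filament cross-linkers, integrins and the plaque proteins beneath them, the actin nucleators of the podosome core, small GTPases with their regulators, and scaffolds and motors for matrix degradation. All 37 were matched by symbol and all 37 passed the filter on low counts, with 364 reads as the lowest count in any library (Svil).

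The cells were osteoclasts grown from bone marrow macrophages of male mice aged 7 to 8 weeks, described as littermates. Marrow cells were expanded with M-CSF, the macrophage growth factor, at 30 ng/ml on uncoated dishes, and on day 3 RANKL, which turns macrophages into osteoclasts, was added for 4 days. There were 4 groups of 3 libraries: wild type with Hes1 loxP, the state without deletion, Notch2 mutant with Hes1 loxP, wild type with Hes1 deletion, and Notch2 mutant with Hes1 deletion. Notch2 is a Notch receptor of the plasma membrane, and Hes1 is a repressor of transcription that acts downstream of such receptors. The labels name neither the Notch2 mutation nor the means by which Hes1 was deleted, and give no number of animals per library, so the p-values measure only the spread between these libraries.

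An osteoclast attaches to its substrate through podosomes, short-lived columns of branched actin ringed by integrins and plaque proteins such as talin, vinculin and paxillin. The Wiskott-Aldrich syndrome protein and the Arp2/3 complex build the core, and a looser network of filaments, cross-linked by alpha-actinin and other proteins, connects neighbouring podosomes. As the cell matures, podosomes gather into clusters, rings and finally a peripheral belt on plastic or glass, or a sealing zone on bone, under the control of Src and of small GTPases.

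Counts assigned to genes were 13832368 to 19293772 per library. All 14 osteoclast markers were detected, and together they made up 3.38 to 5.34% of counts. Macrophage markers summed to 8512 to 10969 CPM (counts scaled to the same total in every library), stromal and osteoblast markers to 152 to 450.4 CPM and neutrophil markers to 198 to 359.9 CPM. Megakaryocyte, lymphocyte and endothelial markers each summed to under 7 CPM, with Gp1bb at 0 in all 12 libraries. Hes1 counts, read as a check of the labels, summed to 23, 7, 2 and 2 in the 4 groups in the order given above. Within the Notch2 mutant, 7 against 2 reads are too few to check the deletion. The count of Notch2, at 166, 156, 163 and 169 CPM on average, does not show which libraries carry the mutation.

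As a set, the 37 genes were abundant and differed little between genotypes. They summed to 28058 to 29471 CPM, which is 2.81 to 2.95% of all counts in a library. Rac2, the Rac GTPase of blood cells, was the only member called in any of 7 comparisons, and it was higher in Notch2 mutant than in wild type libraries when both Hes1 states were averaged. The difference was 0.17 ± 0.04 on the log2 scale (SE), or 1.13-fold, and the adjusted p was 0.0499 in edgeR's quasi-likelihood test, just under the threshold of 0.05. No member was called after Hes1 deletion.

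Levels of different genes are compared below in RPKM, here CPM per kilobase of exon, averaged over the 12 libraries. Actb, the beta-actin gene, stood first with 2285 RPKM (2058 to 2517), above 99.8% of the 13403 genes tested. Actg1, the second cytoplasmic actin, reached 616 RPKM and Cfl1, the filament-severing cofilin, 594 RPKM. Next came Arpc2, a subunit of the Arp2/3 complex, with 379 RPKM, Rac2 with 317, the leukocyte integrin subunit Itgb2 with 313 and gelsolin, Gsn, with 297. At the other end were the plaque protein Zyx with 17.2 RPKM, the exchange factor Vav3 with 8.76 and supervillin, Svil, a membrane-bound organiser of filaments, with 2.78. Svil lay above 35.6% of the genes tested and Vav3 above 62.3%, so the set spans from the most abundant transcripts of the cell to the lower part of the range.

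**Figure D1:**
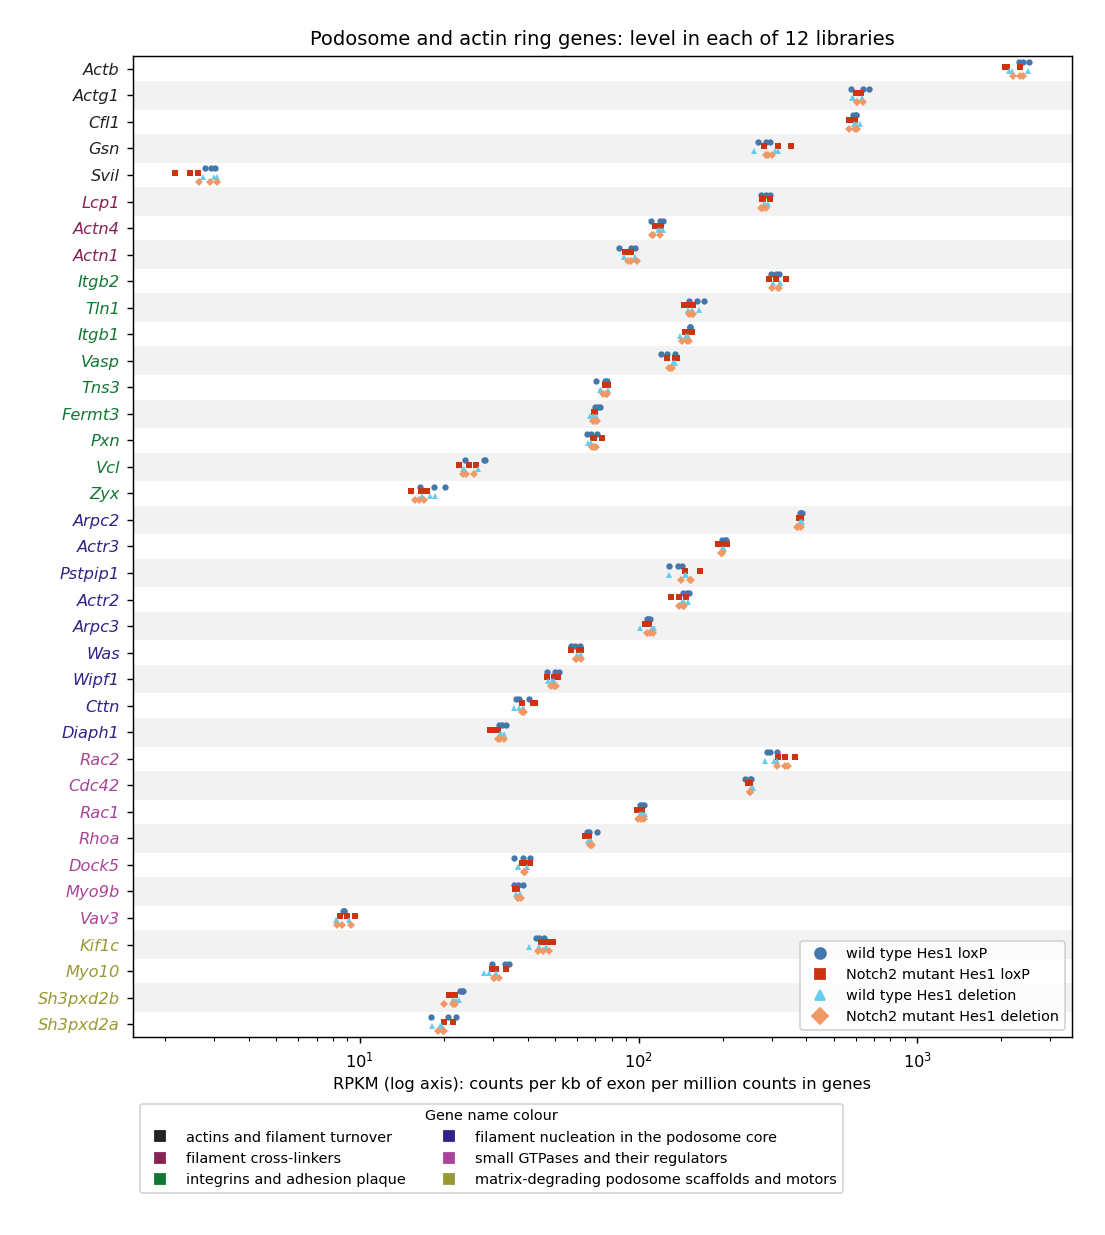
Level of each of the 37 genes in RPKM on a log axis, with a point for each library, colour and shape for the group, and the colour of the gene name for its role. Actb is highest at 2058 to 2517 RPKM and Svil lowest at 2.18 to 3.07 RPKM, and for most genes the points of the 4 groups lie on top of each other.

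Promoter sequence was matched for 27 of the 37 genes in RefSeq's table (GRCm38.p6), as the 250 bases before the start nearest to the GENCODE gene start. The CArG box, the binding element of serum response factor, which with its actin-sensing cofactors is known to drive actin and adhesion genes, was found in 2 of the 27 windows (7.41%) and in 1.47% of all 32851 windows of that length. Those 2 genes, Actg1 and Vcl, are shown with the box in capitals, in the direction of transcription. The first lies at chr11:120348543-120348745 on the minus strand and the second at chr14:20929148-20929397 on the plus strand, and for Actg1 47 bases past the GENCODE gene start are left out.
Actg1: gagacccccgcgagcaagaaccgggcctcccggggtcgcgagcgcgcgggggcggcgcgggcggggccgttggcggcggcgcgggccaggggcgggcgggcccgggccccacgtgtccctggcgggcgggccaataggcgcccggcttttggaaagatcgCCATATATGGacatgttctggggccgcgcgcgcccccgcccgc
Vcl: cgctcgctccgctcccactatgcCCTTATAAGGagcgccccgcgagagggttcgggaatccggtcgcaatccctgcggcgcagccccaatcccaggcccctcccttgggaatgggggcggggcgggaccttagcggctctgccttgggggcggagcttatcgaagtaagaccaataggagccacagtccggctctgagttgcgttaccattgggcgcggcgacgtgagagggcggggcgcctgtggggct
The box ends 33 bases before the annotated gene start of Actg1 and 217 bases before that of Vcl. The core of the site of RBPJ, the DNA-binding partner of Notch receptors (TGGGAA, either strand), was present in 6 of the 27 windows (22.2%) and in 21.6% of all windows. The N box bound by Hes proteins (CACNAG, either strand) was in 8 (29.6%, against 36.7% of all windows), the AP-1 site (TGANTCA) in 2 (7.41% against 6.75%) and the core of the PU.1 site (GAGGAA) in 3 (11.1% against 23.3%). These matches describe letters in the windows only.

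The comparisons asked whether the Notch2 mutation altered these genes with Hes1 intact or deleted, whether Hes1 deletion altered them in either genotype, and whether the effect of one depended on the other. Between Notch2 mutant and wild type with Hes1 loxP, 0 of 37 members were called by edgeR (0.776% of all genes tested were), and 7 had an unadjusted p under 0.05 (14.2% of all genes). With Hes1 deleted, the Notch2 comparison called 0 of 37 (background 0.0149%), with 1 at an unadjusted p under 0.05 (background 6.69%). Averaged over Hes1, with 6 libraries against 6, it called 1 of 37 (background 1.89%, or 0.768% in the upward direction), and 8 had an unadjusted p under 0.05 (background 16.3%). The shares of called members lie near the background.

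Hes1 deletion against loxP called 0 of 37 members in wild type (background 0.0373%), in the Notch2 mutant (background 0.0373%) and averaged over both (background 0.0821%). The counts of members at an unadjusted p under 0.05 were 1, 2 and 3, beside 5.93, 4.76 and 6.89% of all genes. The interaction of Notch2 and Hes1 called 0 of 37 members and 0% of all genes, and no member had an unadjusted p under 0.05 there (3.78% of all genes did). DESeq2 and limma-voom gave the same number of called members as edgeR in all 7 comparisons. Their counts at an unadjusted p under 0.05 equalled those of edgeR except for the interaction, with 1 member, and for Hes1 deletion in the Notch2 mutant, also with 1.

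The differences between groups were small. The median log2 difference over the 37 members was 0.01 for the Notch2 mutation with Hes1 loxP, 0.02 with Hes1 deletion and 0.02 averaged, where the median of all genes was 0.00 in each. For Hes1 deletion the members' median was -0.04 in wild type, -0.04 in the Notch2 mutant and -0.03 averaged, and that of all genes was 0.00. In that averaged Hes1 comparison 5 of the 37 members had a log2 difference above 0, whereas 50.2% of all genes did. The Notch2 medians changed sign when 1 library was left out: without wild type Hes1 loxP replicate 1 for the comparison with Hes1 loxP, where 17 instead of 23 members then lay above 0, and without wild type Hes1 deletion replicate 3 for the average, where 16 instead of 23 did. The 95% intervals of all 37 members lay within 0.5 log2 units (1.41-fold) of no difference in each of the 7 comparisons, while between 62.3 and 79.4% of all genes tested had such an interval. The members' intervals with Hes1 loxP reached from -0.41 (Svil) to 0.35 (Gsn) for the Notch2 mutation.

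**Figure D2:**
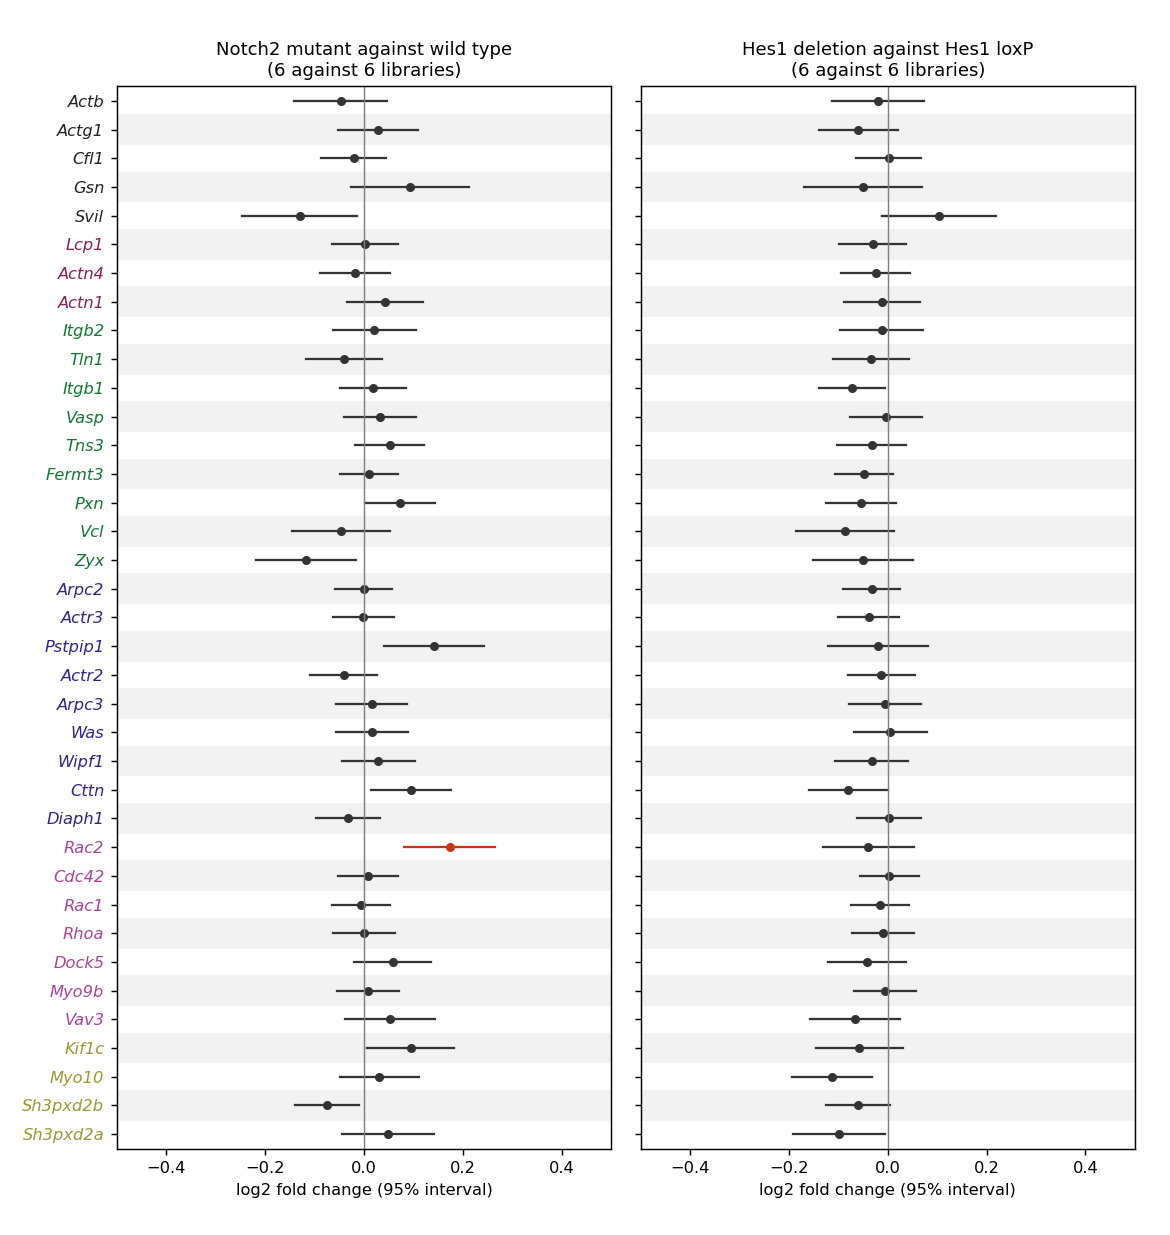
Log2 difference of each of the 37 genes with its 95% interval, for Notch2 mutant against wild type (left) and for Hes1 deletion against Hes1 loxP (right), 6 libraries against 6. Rac2, in red, is the member called, at 0.17, and every interval stays within 0.5 of 0.

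Replicates agreed closely for most members. The standard deviation of log2(CPM + 1) within groups, pooled over the 4 groups, had a median of 0.0533 over the 37 members and 0.109 over all genes tested. It was lowest for Arpc2 at 0.0166, followed by Cdc42 at 0.0229 and the integrin activator Fermt3 at 0.0274. It was highest for Gsn at 0.119, Vcl at 0.105 and Zyx at 0.101. The members' counts are also higher than those of most genes.

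Among the small GTPases and their regulators, Rac2 (ENSMUSG00000033220, chr15:78559167-78572783, GRCm38, minus strand) activates actin branching and the oxidase of phagocytes. Rac2 was at 897, 919 and 975 CPM in wild type Hes1 loxP, 1038, 983 and 1129 in Notch2 mutant Hes1 loxP, 973, 946 and 882 in wild type Hes1 deletion and 1063, 972 and 1039 in Notch2 mutant Hes1 deletion cultures. With Hes1 loxP the 3 Notch2 mutant values lay above all 3 wild type values, and the 5 members whose groups did not overlap in that comparison (Rac2, Svil, Diaph1, Pstpip1 and Sh3pxd2b) compare with 18.3% of all genes. With Hes1 deletion the groups overlapped by a narrow margin, as did the pooled groups of 6. No member separated the pooled groups, neither for Notch2 (background 1.51%) nor for Hes1 (background 0.433%). The log2 difference was 0.20 ± 0.06 (SE, n = 3 per group) with Hes1 loxP, where edgeR gave an adjusted p of 0.138. It was 0.15 ± 0.06 with Hes1 deletion, with an adjusted p of 0.712 by edgeR, and the interaction was -0.05 ± 0.09. The averaged difference of 0.17 ± 0.04, called at an adjusted p of 0.0499 by edgeR, was positive in all 19 alternative fits, from 0.14 to 0.27, and called in 9 of them. It was not called when any 1 of 8 libraries was left out, namely replicates 1 and 2 of wild type Hes1 loxP, 1 and 3 of Notch2 mutant Hes1 loxP, 2 and 3 of wild type Hes1 deletion, or 1 and 3 of Notch2 mutant Hes1 deletion. Adjusted p over the alternatives ranged from 0.000157 to 0.261.

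Marker genes of osteoclasts and of other cell types also differed in the Notch2 comparison that called Rac2. In the averaged comparison, 8 of 14 osteoclast markers were called higher, beside 0.768% of all genes. Called lower were 4 of 15 macrophage markers and 6 of the 17 stromal markers tested, beside 1.12% of all genes. Osteoclast markers summed to 41453 to 44643 CPM in wild type Hes1 loxP, 48530.4 to 53449 in Notch2 mutant Hes1 loxP, 33826 to 40119 in wild type Hes1 deletion and 40318 to 44749.7 in Notch2 mutant Hes1 deletion cultures. Macrophage markers summed to 9935 to 10969, 8512 to 9549.8, 9582 to 9997 and 9222 to 9936 CPM, and stromal markers to 327 to 382, 152 to 312, 416 to 450.4 and 259 to 369 CPM, in the same order of groups. Neutrophil markers summed to 277 to 359.9 CPM in wild type Hes1 loxP and 212 to 273 in Notch2 mutant Hes1 loxP, without overlap, and to 205 to 284 and 198 to 253 with Hes1 deletion. Of the 9 neutrophil markers tested, 1 was called lower with Hes1 loxP (0.634% of all genes were) and 0 in the averaged comparison. There edgeR's unadjusted p was under 0.05 for 5 of the 9, beside 16.3% of all genes. None of these 4 lists had a marker at 0 in all libraries. Between Hes1 states, osteoclast marker sums were lower with deletion than with loxP in both genotypes, without overlap. Stromal sums were higher with deletion in wild type, without overlap, and overlapped in the Notch2 mutant. Macrophage and neutrophil sums overlapped between Hes1 states in both genotypes. The part of these markers in the members' differences after Hes1 deletion was not tested. With a stromal score as a covariate, the averaged Rac2 difference was 0.27 ± 0.07 and its adjusted p 0.261 by edgeR. That score was lower in every Notch2 mutant than in every wild type library within each Hes1 state. The fit therefore cannot separate score from genotype and does not test the stromal part of the Rac2 result. The part of the osteoclast, macrophage and neutrophil markers in it was not tested either. In bulk RNA, more or fewer cells of a type and more or less RNA per cell cannot be told apart.

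The other GTPases were steady. Cdc42, which switches on the Wiskott-Aldrich syndrome protein, was at 752, 743 and 712 CPM in wild type Hes1 loxP, 733, 745 and 730.3 in Notch2 mutant Hes1 loxP, 763, 754 and 751 in wild type Hes1 deletion and 747, 743 and 743 in Notch2 mutant Hes1 deletion cultures. Its 3 Notch2 mutant values lay below the 3 wild type values with Hes1 deletion, by a log2 difference of -0.01 ± 0.04, and the groups overlapped in the other comparisons. Cdc42, Pxn and Vasp were the 3 members without overlap there, beside 12.4% of all genes. Rhoa was at 533, 499 and 489 CPM in wild type Hes1 loxP, 485, 497 and 483 in Notch2 mutant Hes1 loxP, 499, 507 and 494 in wild type Hes1 deletion and 509, 504 and 503 in Notch2 mutant Hes1 deletion cultures. Rhoa drives stress fibres and actin ring stability, and its Notch2 mutant libraries with Hes1 deletion were all above those with Hes1 loxP, at a log2 difference of 0.02 ± 0.04 with an edgeR adjusted p of 0.987. Rac1, the ubiquitous Rac, ranged from 445 to 475 CPM over the 12 libraries. Myo9b, a myosin that also inactivates small GTPases, ranged from 268 to 288 CPM.

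The exchange factors of Rac among the members, Vav3 and Dock5, showed no called difference. Vav3 was at 52.8, 52.7 and 52.4 CPM in wild type Hes1 loxP, 53.9, 57.6 and 51.0 in Notch2 mutant Hes1 loxP, 49.2, 54.9 and 49.9 in wild type Hes1 deletion and 49.6, 55.7 and 51.7 in Notch2 mutant Hes1 deletion cultures. Vav3, the Vav protein that osteoclasts are known to need for resorption, overlapped between groups in every pairing, and its averaged log2 differences were 0.05 ± 0.04 for the Notch2 mutation and -0.07 ± 0.04 for Hes1 deletion. Dock5 was at 435, 495 and 468 CPM in wild type Hes1 loxP, 463, 498 and 476 in Notch2 mutant Hes1 loxP, 484, 449 and 448 in wild type Hes1 deletion and 472, 473 and 476 in Notch2 mutant Hes1 deletion cultures. Dock5, known for its part in organising podosomes into a sealing zone, also overlapped throughout, with averaged differences of 0.06 ± 0.04 and -0.04 ± 0.04 in the same order. Of the 7 GTPase genes and regulators, 1 was called in the averaged Notch2 comparison and 0 in the other 6 comparisons by edgeR.

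Actins and filament turnover factors held the most abundant transcripts. Actb was at 6207, 6394 and 6743 CPM in wild type Hes1 loxP, 6227, 5514 and 5599 in Notch2 mutant Hes1 loxP, 5717, 5836 and 6678 in wild type Hes1 deletion and 5896, 6248 and 6403 in Notch2 mutant Hes1 deletion cultures. The lowest Actb values, 5514 and 5599 CPM, came from Notch2 mutant Hes1 loxP replicates 2 and 3, while replicate 1 of that group was within the wild type range. The log2 difference with Hes1 loxP was -0.13 ± 0.06 with an edgeR adjusted p of 0.349, and with Hes1 deletion it was 0.04 ± 0.06. Actg1 was at 1533, 1776 and 1689.7 CPM in wild type Hes1 loxP, 1599, 1664 and 1672 in Notch2 mutant Hes1 loxP, 1560.2, 1550.5 and 1677 in wild type Hes1 deletion and 1609, 1696 and 1609 in Notch2 mutant Hes1 deletion cultures. Its groups overlapped in all 4 pairings and its averaged log2 differences were 0.03 ± 0.04 for Notch2 and -0.06 ± 0.04 for Hes1. Of the 75-base words in Actg1 transcripts, 33.5% also occur in transcripts of 10 other genes, Actg-ps1 among them, so its count is less certain than that of Actb, for which the share is 1.58%. Cfl1 ranged only from 1617 to 1772 CPM.

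Gelsolin severs and caps filaments, and osteoclasts without it are known to lack podosomes. Gsn was at 935, 845 and 906 CPM in wild type Hes1 loxP, 997, 890.4 and 1108 in Notch2 mutant Hes1 loxP, 974, 1002 and 818 in wild type Hes1 deletion and 953, 922 and 902 in Notch2 mutant Hes1 deletion cultures. Notch2 mutant Hes1 loxP replicate 3 was the highest of the 12 and wild type Hes1 deletion replicate 3 the lowest, and the groups overlapped in every pairing. The log2 difference for the Notch2 mutation was 0.18 ± 0.08 with Hes1 loxP (edgeR adjusted p = 0.308) and 0.00 ± 0.08 with Hes1 deletion.

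Supervillin ties actin and myosin to the membrane and takes part in podosome turnover. Svil was at 29.7, 32.4 and 31.2 CPM in wild type Hes1 loxP, 26.3, 28.2 and 23.3 in Notch2 mutant Hes1 loxP, 32.2, 29.2 and 32.9 in wild type Hes1 deletion and 28.3, 32.7 and 31.0 in Notch2 mutant Hes1 deletion cultures. The Notch2 mutant Hes1 loxP libraries were the 3 lowest of all 12, by a narrow margin, and did not overlap with either of the groups compared with them. With Hes1 deleted, Notch2 mutant and wild type overlapped. The log2 difference was -0.24 ± 0.08 with Hes1 loxP (edgeR adjusted p = 0.159) and -0.02 ± 0.08 with Hes1 deletion. The difference between these, the interaction, was 0.22 ± 0.11 with an edgeR adjusted p of 0.999, so it was not called. Hes1 deletion in the Notch2 mutant gave 0.22 ± 0.08 with an adjusted p of 0.862 by edgeR. Svil, Rhoa and Myo9b were the 3 members whose groups did not overlap in that comparison, beside 11% of all genes. None of the 5 actin and turnover genes was called by edgeR in any of the 7 comparisons. For the Notch2 mutation with Hes1 loxP, 3 of 5 (Actb, Gsn and Svil) had an unadjusted p under 0.05, beside 14.2% of all genes.

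**Figure D3:**
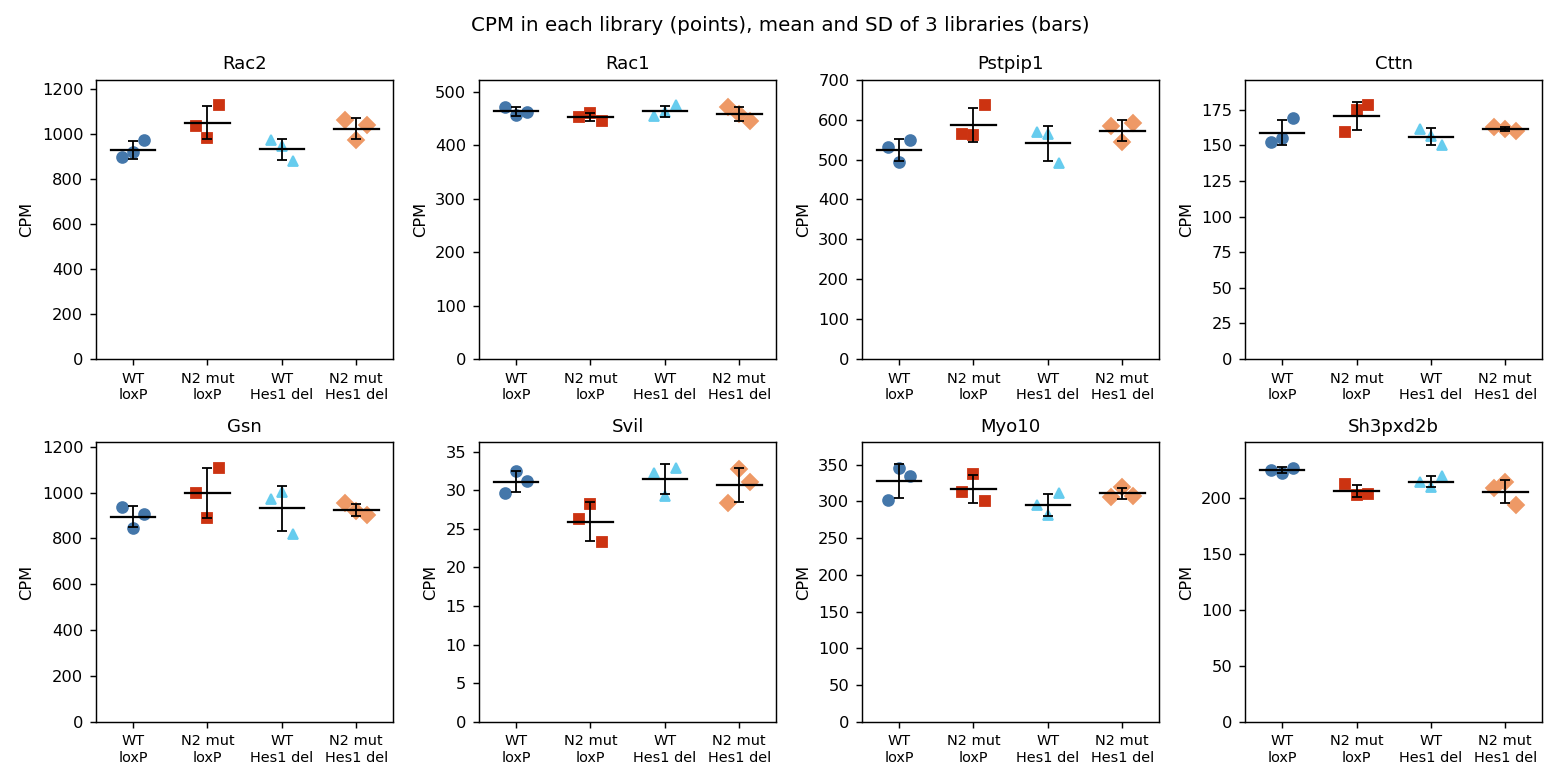
CPM in each library (points) with the mean and SD of 3 libraries (bars) for 8 of the genes, on axes that start at 0. Rac2 is higher in the Notch2 mutant groups by 1.13-fold on average, Rac1 is level, and Svil has its 3 lowest values in Notch2 mutant Hes1 loxP libraries.

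The 3 cross-linkers bind filaments into bundles and networks. Lcp1 was at 2609, 2801 and 2713 CPM in wild type Hes1 loxP, 2632, 2807 and 2648 in Notch2 mutant Hes1 loxP, 2687, 2689 and 2773 in wild type Hes1 deletion and 2648, 2725 and 2621 in Notch2 mutant Hes1 deletion cultures. Lcp1, the leukocyte plastin L-plastin, spanned 1.08-fold from the lowest to the highest library, with all groups overlapping. Actn1 was at 471, 520.3 and 536 CPM in wild type Hes1 loxP, 495, 518 and 510.2 in Notch2 mutant Hes1 loxP, 489, 489 and 535 in wild type Hes1 deletion and 518, 546 and 506 in Notch2 mutant Hes1 deletion cultures. Actn4 was at 679, 734 and 747 CPM in wild type Hes1 loxP, 698, 701 and 735 in Notch2 mutant Hes1 loxP, 728, 718 and 746 in wild type Hes1 deletion and 689, 729.9 and 686 in Notch2 mutant Hes1 deletion cultures. Both alpha-actinins overlapped between groups in every pairing. For the averaged Notch2 comparison the log2 differences were 0.04 ± 0.04 for Actn1, -0.02 ± 0.03 for Actn4 and 0.00 ± 0.03 for Lcp1, and for Hes1 deletion they were -0.01 ± 0.04, -0.02 ± 0.03 and -0.03 ± 0.03. None of the 3 was called by edgeR in any comparison, and none had an unadjusted p under 0.05.

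Of the 9 integrin and plaque genes, 0 were called by edgeR in any comparison. In the averaged Notch2 comparison 2 (Zyx and Pxn) had an unadjusted p under 0.05, beside 16.3% of all genes. For averaged Hes1 deletion it was 1 (Itgb1), beside 6.89%. Itgb1 was at 625, 625 and 622 CPM in wild type Hes1 loxP, 621, 632 and 599 in Notch2 mutant Hes1 loxP, 605, 613 and 575 in wild type Hes1 deletion and 621, 581 and 608 in Notch2 mutant Hes1 deletion cultures. Itgb1 encodes the integrin beta 1 chain of collagen and fibronectin receptors, and in wild type its 3 Hes1 deletion values lay below the 3 loxP values, which were within 3 CPM of each other. The log2 difference of Hes1 deletion was -0.08 ± 0.04 in wild type, -0.06 ± 0.04 in the Notch2 mutant and -0.07 ± 0.03 averaged, where edgeR gave an adjusted p of 0.673. Itgb1 and Sh3pxd2b were the 2 members without overlap for Hes1 deletion in wild type, beside 10.9% of all genes.

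Vinculin links talin to actin at the podosome ring. Vcl was at 195, 230.1 and 228 CPM in wild type Hes1 loxP, 186, 214 and 202 in Notch2 mutant Hes1 loxP, 192, 194 and 218 in wild type Hes1 deletion and 191, 211 and 197 in Notch2 mutant Hes1 deletion cultures. Wild type Hes1 loxP replicates 2 and 3 were the 2 highest libraries, but replicate 1 was among the lower ones and all groups overlapped. Hes1 deletion in wild type gave -0.13 ± 0.07 with an adjusted p of 0.846 by edgeR. The 3' end of Vcl overlaps 2090 bases of Ap3m1 exons on the other strand, and counting without strand would mix reads of both genes.

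Pxn was at 537, 552 and 580.0 CPM in wild type Hes1 loxP, 567, 562 and 608 in Notch2 mutant Hes1 loxP, 552, 537 and 551 in wild type Hes1 deletion and 576, 557 and 566 in Notch2 mutant Hes1 deletion cultures. Paxillin, the adaptor that recruits kinases and regulates podosome disassembly, was above wild type in all 3 Notch2 mutant libraries with Hes1 deletion and overlapped with Hes1 loxP. The averaged Notch2 difference was 0.07 ± 0.03 with an adjusted p of 0.280 by edgeR. Zyx was at 99.8, 88.3 and 109 CPM in wild type Hes1 loxP, 94.1, 82.2 and 89.0 in Notch2 mutant Hes1 loxP, 89.8, 96.1 and 100.4 in wild type Hes1 deletion and 85.1, 91.8 and 88.1 in Notch2 mutant Hes1 deletion cultures. Zyxin, a sensor of tension that gathers Ena and VASP proteins, had its highest value in wild type Hes1 loxP replicate 3 and its lowest in Notch2 mutant Hes1 loxP replicate 2, with overlap in every pairing. The Notch2 difference was -0.14 ± 0.07 with Hes1 loxP, -0.10 ± 0.07 with Hes1 deletion and -0.12 ± 0.05 averaged, with an adjusted p of 0.228 for the average in edgeR.

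Vasp was at 314, 332 and 353 CPM in wild type Hes1 loxP, 353, 332 and 359 in Notch2 mutant Hes1 loxP, 349.8, 348 and 353 in wild type Hes1 deletion and 342, 344 and 337 in Notch2 mutant Hes1 deletion cultures. VASP elongates filaments at the plaque, and its Notch2 mutant libraries lay below the wild type ones with Hes1 deletion but not with Hes1 loxP. The log2 differences were -0.03 ± 0.05 and 0.09 ± 0.05, and the interaction was -0.11 ± 0.07 with an edgeR adjusted p of 0.999. The remaining plaque genes were the talin gene Tln1 at 1422 to 1687 CPM, Itgb2 at 897 to 1032 CPM, kindlin-3, Fermt3, at 388 to 420.4 CPM and tensin-3, Tns3, at 789 to 871 CPM. Their log2 differences lay between -0.07 and 0.06 over the 7 comparisons.

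The 9 nucleation genes build the podosome core. Pstpip1 was at 532, 493 and 548 CPM in wild type Hes1 loxP, 563, 560.4 and 636 in Notch2 mutant Hes1 loxP, 568, 564 and 490.3 in wild type Hes1 deletion and 583, 544 and 591 in Notch2 mutant Hes1 deletion cultures. Pstpip1, a membrane-curving protein that binds the Wiskott-Aldrich syndrome protein, was above wild type in all 3 Notch2 mutant libraries with Hes1 loxP and overlapped with Hes1 deletion, where wild type replicate 3 was the lowest of the 12. Its log2 difference was 0.19 ± 0.07 with Hes1 loxP (edgeR adjusted p = 0.214), 0.10 ± 0.07 with Hes1 deletion and 0.14 ± 0.05 averaged (edgeR adjusted p = 0.138). Cttn was at 152, 155 and 169 CPM in wild type Hes1 loxP, 159.6, 174 and 178 in Notch2 mutant Hes1 loxP, 162, 157 and 149.8 in wild type Hes1 deletion and 163, 161 and 160.0 in Notch2 mutant Hes1 deletion cultures. Cortactin, which stabilises Arp2/3 branches, had its 2 highest values in Notch2 mutant Hes1 loxP, but replicate 1 of that group overlapped with wild type. The Notch2 difference was 0.13 ± 0.05 with Hes1 loxP and 0.09 ± 0.04 averaged, with adjusted p of 0.282 and 0.220 by edgeR.

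Diaph1 was at 206, 199.5 and 213 CPM in wild type Hes1 loxP, 196, 186 and 198 in Notch2 mutant Hes1 loxP, 202, 202 and 208 in wild type Hes1 deletion and 198, 208 and 202 in Notch2 mutant Hes1 deletion cultures. Diaph1, the formin mDia1 that grows unbranched filaments, was below wild type in all 3 Notch2 mutant Hes1 loxP libraries by a log2 difference of -0.07 ± 0.04, with an edgeR adjusted p of 0.520. Wipf1 was at 276, 295 and 304 CPM in wild type Hes1 loxP, 276, 293 and 302 in Notch2 mutant Hes1 loxP, 293, 287 and 279.6 in wild type Hes1 deletion and 286, 293 and 298 in Notch2 mutant Hes1 deletion cultures. Wipf1, the chaperone WIP of the Wiskott-Aldrich syndrome protein, overlapped in every pairing and had averaged differences of 0.03 ± 0.04 and -0.03 ± 0.04 for Notch2 and Hes1. Was itself ranged from 136 to 148 CPM.

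Arpc2 was at 768, 781 and 777 CPM in wild type Hes1 loxP, 761, 775 and 776 in Notch2 mutant Hes1 loxP, 769.5, 777 and 785 in wild type Hes1 deletion and 758, 774 and 752 in Notch2 mutant Hes1 deletion cultures. Actr3 was at 944, 956 and 919 CPM in wild type Hes1 loxP, 917, 963 and 895 in Notch2 mutant Hes1 loxP, 937, 929.6 and 919.7 in wild type Hes1 deletion and 918, 921 and 915 in Notch2 mutant Hes1 deletion cultures. These Arp2/3 subunits overlapped between all groups compared, and the averaged Notch2 differences were 0.00 ± 0.03 and 0.00 ± 0.03. For Actr3, 17.7% of 75-base words also occur in transcripts of 2 other genes, so its count is less certain. The other subunits, Actr2 and Arpc3, ranged from 679 to 787 CPM and from 280.3 to 315 CPM. By edgeR, 0 of the 9 nucleation genes were called in any comparison. For the Notch2 mutation 2 of 9 (Pstpip1 and Cttn) had an unadjusted p under 0.05, both with Hes1 loxP (14.2% of all genes) and averaged (16.3%). For Hes1 deletion in the Notch2 mutant it was 1 (Cttn), beside 4.76% of all genes.

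The 4 scaffolds and motors serve podosomes that degrade matrix. Myo10 was at 302, 346 and 335 CPM in wild type Hes1 loxP, 312, 337 and 301 in Notch2 mutant Hes1 loxP, 294, 281 and 311 in wild type Hes1 deletion and 306, 319 and 307 in Notch2 mutant Hes1 deletion cultures. Myosin X carries integrins into filopodia and binds microtubules, and all 3 wild type Hes1 deletion libraries were at or below 311 CPM, although replicate 1 of wild type Hes1 loxP was among them. Its log2 difference for Hes1 deletion was -0.17 ± 0.05 in wild type (edgeR adjusted p = 0.632), -0.06 ± 0.05 in the Notch2 mutant and -0.11 ± 0.04 averaged (edgeR adjusted p = 0.50). Of all members it had the smallest unadjusted p for Hes1 deletion in wild type and averaged.

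Sh3pxd2a was at 208, 256 and 241 CPM in wild type Hes1 loxP, 231, 251 and 231 in Notch2 mutant Hes1 loxP, 229, 210.4 and 224 in wild type Hes1 deletion and 230.5, 232 and 222 in Notch2 mutant Hes1 deletion cultures. Sh3pxd2b was at 225, 222 and 227 CPM in wild type Hes1 loxP, 212, 203 and 203 in Notch2 mutant Hes1 loxP, 214, 209 and 219.7 in wild type Hes1 deletion and 209, 214 and 194 in Notch2 mutant Hes1 deletion cultures. These encode the Src substrates Tks5 and Tks4, scaffolds that podosomes need to degrade matrix. Sh3pxd2a overlapped in every pairing, while Sh3pxd2b was lower in all 3 Notch2 mutant Hes1 loxP and all 3 wild type Hes1 deletion libraries than in the 3 wild type Hes1 loxP libraries. The log2 differences of Sh3pxd2b were -0.10 ± 0.04 for the Notch2 mutation (edgeR adjusted p = 0.304) and -0.09 ± 0.04 for Hes1 deletion (edgeR adjusted p = 0.852), and these comparisons share their wild type Hes1 loxP libraries. Sh3pxd2a gave -0.10 ± 0.04 for averaged Hes1 deletion.

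Kif1c was at 319.5, 313 and 332 CPM in wild type Hes1 loxP, 341, 325 and 358 in Notch2 mutant Hes1 loxP, 337, 319 and 294 in wild type Hes1 deletion and 347, 317 and 329 in Notch2 mutant Hes1 deletion cultures. Kif1c, a kinesin that moves along microtubules towards podosomes, had its highest library in Notch2 mutant Hes1 loxP and its lowest in wild type Hes1 deletion, with overlap in every pairing. The averaged Notch2 difference was 0.09 ± 0.04 with an adjusted p of 0.265 by edgeR. By edgeR 0 of the 4 scaffold and motor genes were called in any comparison. For averaged Hes1 deletion all 4 had a log2 difference below 0, with a median of -0.08. Of the whole member set, 32 genes, these 4 included, lay below 0 in that comparison and 5 above. The direction is therefore not particular to this role. An unadjusted p under 0.05 was found there for 2 of 4 (Myo10 and Sh3pxd2a), beside 6.89% of all genes.

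Ratios of related genes within a library compare paralogues per kilobase of merged exon, and the order of a close pair can depend on that length. In RPKM, Rac2 exceeded Rac1 in every library, by a median of 3.08 (range 2.69 to 3.68)-fold. The ratio was 2.76, 2.92 and 3.05 in wild type Hes1 loxP, 3.32, 3.09 and 3.68 in Notch2 mutant Hes1 loxP, 3.10, 2.97 and 2.69 in wild type Hes1 deletion and 3.27, 3.07 and 3.38 in Notch2 mutant Hes1 deletion cultures. All 3 Notch2 mutant ratios lay above those of wild type with Hes1 loxP, and with Hes1 deletion the lowest mutant ratio was just under the highest wild type one. Actb exceeded Actg1, whose count is less certain as given above, by 3.69 (range 3.29 to 4.02)-fold, with overlap in all 4 pairings of groups. Itgb2 exceeded Itgb1 by 2.11 (range 1.90 to 2.30)-fold. Its ratio in wild type Hes1 deletion, 2.15 to 2.18, lay above that in wild type Hes1 loxP, 1.95 to 2.08, and above that in Notch2 mutant Hes1 deletion cultures, 2.10 to 2.13. Actn4 stood at 1.27 (range 1.20 to 1.35) times Actn1 and Sh3pxd2a at 0.911 (range 0.774 to 1.04) times Sh3pxd2b. In CPM, without the division by length, Sh3pxd2a was above Sh3pxd2b in most libraries. With Hes1 deletion the Actn4 ratio was lower in the Notch2 mutant, 1.20 to 1.23 against 1.26 to 1.35, and the Sh3pxd2a ratio higher, 0.910 to 0.958 against 0.842 to 0.894, while with Hes1 loxP both overlapped.

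For several families the member was nearly the sole form. Tln1 was 973 (range 720.0 to 1357) times its paralogue Tln2, Fermt3 was 313 (range 150.4 to 519) times Fermt2, Cfl1 was 96.0 (range 79.6 to 107) times Cfl2 and Was was 19.7 (range 17.8 to 21.8) times Wasl, the form found in most tissues. In other families it was not the leading form. Vav3 reached only 0.272 (range 0.245 to 0.311) times Vav1, the Vav protein of blood cells, and Cttn 0.341 (range 0.303 to 0.386) times Hcls1, its blood cell relative. Dock5 exceeded Dock2, the Rac exchange factor of leukocytes, by 2.67 (range 2.15 to 3.25)-fold. That ratio was 2.15, 2.62 and 2.58 in wild type Hes1 loxP, 2.77, 3.10 and 3.25 in Notch2 mutant Hes1 loxP, 2.58, 2.39 and 2.17 in wild type Hes1 deletion and 2.82, 2.73 and 2.84 in Notch2 mutant Hes1 deletion cultures. Its Notch2 mutant values were all above the wild type values in both Hes1 states. Dock5 itself overlapped in every pairing, so the ratio moved mainly with Dock2, which was lower in the mutant as given below.

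Of the 14 ratios read, 5 did not overlap between Notch2 mutant and wild type with Hes1 loxP, 5 with Hes1 deletion, 1 between Hes1 states in wild type and 0 in the Notch2 mutant. Only Dock5 over Dock2 did not overlap for Notch2 in both Hes1 states. With Hes1 loxP the others were Rac2 over Rac1, Actr3 over Actr2 at 1.40 to 1.48 in the mutant against 1.37 to 1.38, Tln1 over Tln2 at 989 to 1155 against 846 to 956, and Cfl1 over Cfl2, which was lower in the mutant with a mean of 85.0 against 102. With Hes1 deletion they were Itgb2 over Itgb1, Actn4 over Actn1, Sh3pxd2a over Sh3pxd2b, and Fermt3 over Fermt2 at 334 to 519 in the mutant against 150.4 to 241. The Tln1 and Fermt3 ratios rest on denominators of low level. Tln2 was at 0.112 to 0.214 RPKM. Fermt3 itself varied little between libraries, so its ratio moved with the low level of Fermt2. The ratios were not tested. Their pairs were chosen by name, and no share without overlap was computed over other gene pairs. Among single genes, 18.3% did not overlap for Notch2 with Hes1 loxP and 12.4% with Hes1 deletion. For Hes1 deletion the shares were 10.9% in wild type and 11% in the Notch2 mutant.

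**Figure D4:**
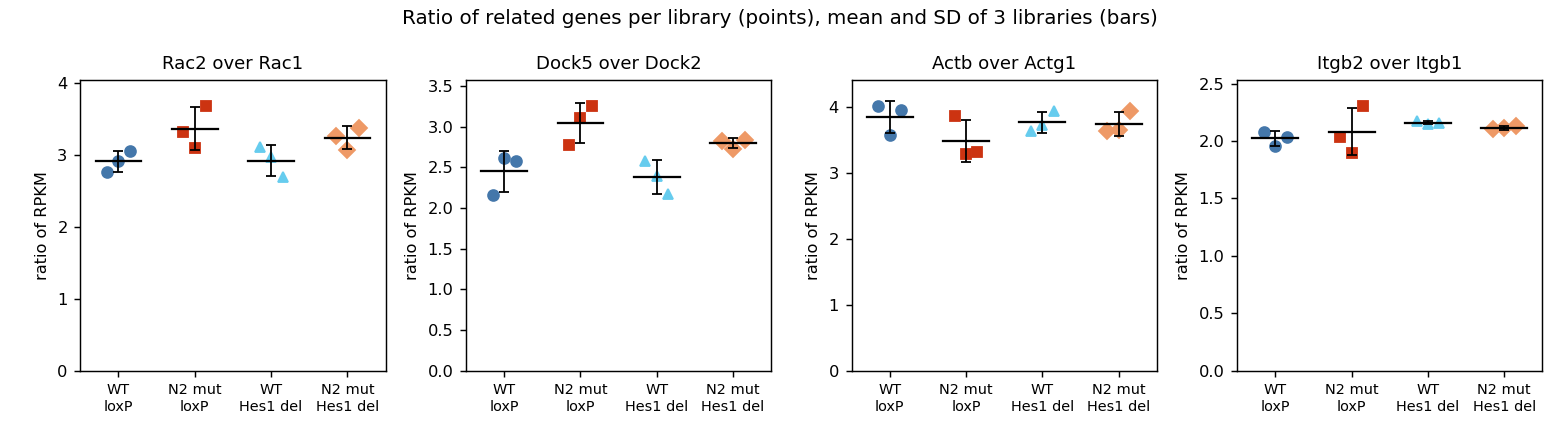
Ratio of RPKM of 4 pairs of related genes in each library (points) with the mean and SD of 3 libraries (bars). Rac2 over Rac1 and Dock5 over Dock2 are higher in the Notch2 mutant groups, Dock5 over Dock2 without overlap within each Hes1 state. Actb over Actg1 overlaps throughout, and Itgb2 over Itgb1 has its wild type Hes1 deletion libraries above those of wild type Hes1 loxP and of Notch2 mutant Hes1 deletion.

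The members act among many more cytoskeletal genes, and 115 of these in 4 lists were read beside them. By edgeR, 3 of 115 were called lower for the Notch2 mutation with Hes1 loxP (background 0.634%) and 4 lower averaged over Hes1 (background 1.12%). None was called higher, and 0 were called in the other 5 comparisons. Of the 115, 6 had an unadjusted p under 0.05 for the Notch2 mutation with Hes1 deletion (6.69% of all genes). Hes1 deletion gave 5 in wild type (5.93%), 3 in the Notch2 mutant (4.76%) and 6 averaged (6.89%), and the interaction gave 1 (3.78%). The median log2 difference was -0.02 with Hes1 loxP and 0.00 averaged, for all 115 genes.

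Among 19 further GTPase regulators, Dock2 was called in both comparisons. Dock2 was at 189.7, 178 and 171 CPM in wild type Hes1 loxP, 157, 151 and 137 in Notch2 mutant Hes1 loxP, 176, 176 and 193 in wild type Hes1 deletion and 157, 163 and 157 in Notch2 mutant Hes1 deletion cultures. The 6 Notch2 mutant libraries were all below the 6 wild type libraries. The log2 difference was -0.25 ± 0.05 with Hes1 loxP (edgeR adjusted p = 0.0302), -0.18 ± 0.05 with Hes1 deletion and -0.22 ± 0.04 averaged (edgeR adjusted p = 0.00668). The averaged call was kept in 18 of 19 alternative fits and lost with the stromal score as a covariate, at -0.24 ± 0.06 and an adjusted p of 0.261 in edgeR. The call with Hes1 loxP was lost in 6 of 20 alternatives, with the stromal covariate, with only the groups compared, and when replicate 1 or 2 of wild type or replicate 2 or 3 of the Notch2 mutant with Hes1 loxP was left out. Its adjusted p by edgeR, DESeq2 and limma-voom ranged from 0.000395 to 0.237 over these alternatives. Arhgdia, which holds small GTPases inactive, was the most abundant of the list at 501 RPKM, followed by Arf1 at 363, and Vav2 and Fgd2 were the lowest at 4.69 and 3.91 RPKM.

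Among 36 further nucleation and filament regulators, Evl, an Ena/VASP protein related to Vasp, was called lower. Evl was at 53.5, 45.4 and 43.2 CPM in wild type Hes1 loxP, 35.4, 32.4 and 37.4 in Notch2 mutant Hes1 loxP, 39.7, 46.0 and 45.6 in wild type Hes1 deletion and 41.0, 36.6 and 39.1 in Notch2 mutant Hes1 deletion cultures. With Hes1 loxP the 3 Notch2 mutant values were below the 3 wild type values, and with Hes1 deletion the groups overlapped, since Notch2 mutant replicate 1 was above wild type replicate 1. Its log2 difference was -0.40 ± 0.08 with Hes1 loxP (edgeR adjusted p = 0.0308) and -0.28 ± 0.06 averaged (edgeR adjusted p = 0.0221), against -0.16 ± 0.08 with Hes1 deletion. The averaged call was lost in 4 of 19 alternatives, the stromal covariate, with -0.16 ± 0.10, and the fits without wild type Hes1 loxP replicate 1, wild type Hes1 deletion replicate 2 or Notch2 mutant Hes1 deletion replicate 3. The call with Hes1 loxP was lost in 6 of 20, with the stromal covariate, at -0.28 ± 0.11, and without any 1 of the 6 libraries compared other than wild type Hes1 loxP replicate 3. Tmsb4x, the actin monomer buffer thymosin beta-4, and Pfn1, profilin, led the list at 1239.8 and 533 RPKM, and Ssh2 and Enah were lowest at 2.50 and 0.113 RPKM.

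Among 25 contractile, motor and microtubule genes, Cald1, the actin-binding caldesmon, was called lower. Cald1 was at 9.59, 5.86 and 7.12 CPM in wild type Hes1 loxP, 4.34, 3.35 and 4.61 in Notch2 mutant Hes1 loxP, 6.54, 8.52 and 8.65 in wild type Hes1 deletion and 4.32, 4.45 and 4.30 in Notch2 mutant Hes1 deletion cultures. The 6 Notch2 mutant values were all below the 6 wild type values, at a low level. The log2 difference was -0.84 ± 0.18 with Hes1 loxP (edgeR adjusted p = 0.0433), -0.84 ± 0.18 with Hes1 deletion and -0.84 ± 0.13 averaged (edgeR adjusted p = 0.00339). With the stromal covariate the averaged difference was -0.62 ± 0.22 and was not called, while the other 18 alternatives kept the averaged call. The call with Hes1 loxP was lost in 11 of 20 alternatives. These were limma-voom (adjusted p = 0.0586), only the groups compared (0.0627 by edgeR), the stromal covariate, and the fits without any 1 of 8 libraries, namely replicates 1 and 3 of wild type Hes1 loxP, 1, 2 and 3 of Notch2 mutant Hes1 loxP, 2 of wild type Hes1 deletion, and 2 and 3 of Notch2 mutant Hes1 deletion. Its adjusted p ranged from 5.45e-05 to 0.351 over the alternatives in edgeR, DESeq2 and limma-voom. The list's most abundant genes were Vim, vimentin, at 960.1 RPKM and Tpm4, a tropomyosin, at 217, and its lowest were Kif9 and Myh10 at 0.323 and 0.146 RPKM.

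Among 35 further adhesion and integrin signalling genes, Ptk2, the focal adhesion kinase, was called lower in the averaged comparison. Ptk2 was at 36.9, 32.9 and 29.0 CPM in wild type Hes1 loxP, 24.9, 26.2 and 20.8 in Notch2 mutant Hes1 loxP, 28.6, 29.1 and 39.5 in wild type Hes1 deletion and 27.4, 29.4 and 26.7 in Notch2 mutant Hes1 deletion cultures. With Hes1 loxP the groups did not overlap and with Hes1 deletion they did. The averaged difference was -0.32 ± 0.08 with an edgeR adjusted p of 0.0491, and it was not called in 11 of 19 alternatives. These were limma-voom (adjusted p = 0.0547), the stromal covariate, a fit with the replicate number as a block, and the fits without any 1 of 8 libraries, namely replicates 1 and 2 of wild type Hes1 loxP, 1 and 3 of Notch2 mutant Hes1 loxP, 3 of wild type Hes1 deletion, and 1, 2 and 3 of Notch2 mutant Hes1 deletion. The adjusted p ranged from 9.61e-06 to 0.274 over the alternatives in edgeR, DESeq2 and limma-voom. Src, the kinase that governs podosome assembly in osteoclasts, was at 0.12 ± 0.03 averaged with an edgeR adjusted p of 0.0679. Rap1b and Src were the most abundant of the list at 207 and 111 RPKM, and Tln2 and Tgfb1i1 the least at 0.164 and 0.156 RPKM. The stromal marker sums given above moved in the same comparison as these 4 genes. Since the stromal score nearly follows the Notch2 genotype, the covariate fits cannot separate them, and the part of stromal cells was not tested otherwise.

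**Figure D5:**
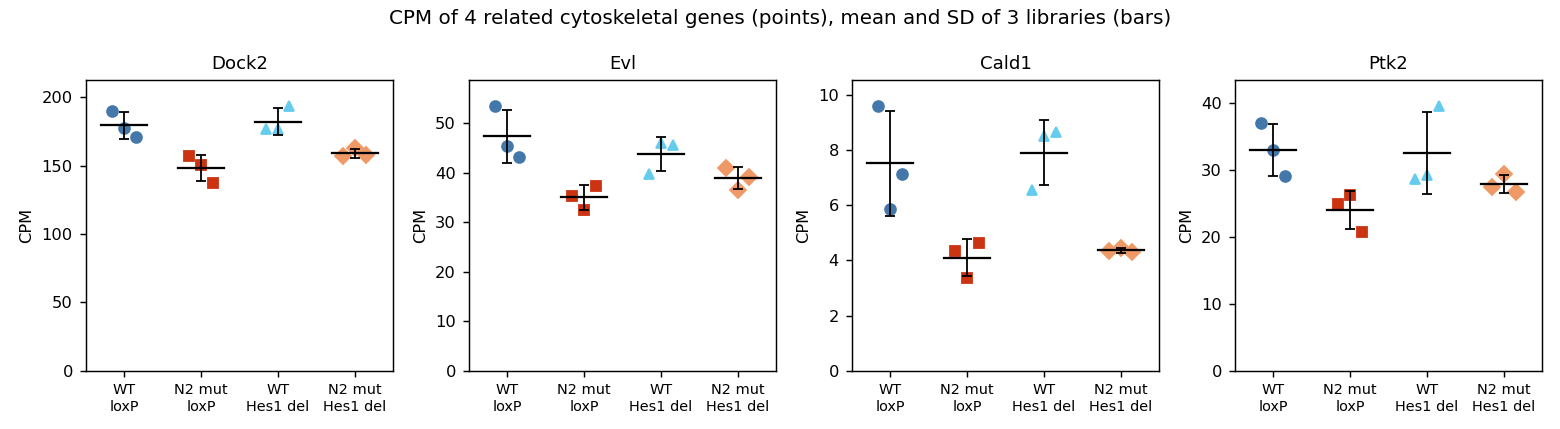
CPM of Dock2, Evl, Cald1 and Ptk2 in each library (points) with the mean and SD of 3 libraries (bars), on axes that start at 0. Dock2 and Cald1 are lower in all 6 Notch2 mutant than in all 6 wild type libraries, while Evl and Ptk2 overlap with Hes1 deletion.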

How the data were processed

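RNA was sequenced from 12 osteoclast cultures with a stranded mRNA kit and paired 75-base reads in 1 pool, per the labels' protocols. The authors deposited raw counts per gene; the submitters' processing notes name HISAT2, SAMtools, Picard, HTSeq, DESeq2 and the build GRCm38. Tool versions, the gene annotation and whether strand was used are not stated there. Without strand, reads from overlapping genes on opposite strands (Vcl with Ap3m1, Rac1 with Daglb) cannot be told apart. Rows that name no gene held 15.8 to 19.0% of each file and were left out of library sizes. Names for 52081 of 55414 identifiers came from GENCODE M21.

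CPM were computed over counts in genes and RPKM per kilobase of merged exon length. Genes were filtered with filterByExpr (minimum count 10, minimum total 15), leaving 13403, scaled by TMM and tested with edgeR 4.0.16 in R 4.3.3, using 1 quasi-likelihood fit of all 12 libraries and two-sided tests, with Benjamini-Hochberg adjustment over all genes and a threshold of 0.05. Standard errors and 95% intervals come from that fit. Depth was 13832368 to 19293772 counts. Counting error is relatively largest for Svil, the member with the lowest count, and its share of the spread was not computed for any member. Over all pairings of groups, same-numbered replicates did not consistently deviate together (r from -0.0896 to 0.107), so the numbers were not used as pairs. Between wild type and Notch2 mutant with Hes1 loxP, however, same-numbered replicates had r of 0.098, 0.107 and 0.077. Differently numbered ones there had r from -0.075 to -0.020. Deviations from a group mean sum to 0, so these negative values go with the positive ones and are not separate information. A block on replicate number was fitted as an alternative. No 2 replicates agreed within sampling noise (chi-square per gene 2.32 to 7.78).

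Other settings tried were DESeq2 1.42.0, limma-voom (limma 3.58.1), RLE scaling, filters of none or of a mean count of 50, a replicate block, a stromal score as a covariate, a fit of only the groups compared, and each library left out. The edgeR step was tested on simulated counts. Every member is accounted for, and values in every library are given for members called anywhere and, per role and comparison, for the 2 with the smallest adjusted p; of the other lists, called genes and the highest and lowest levels are named, with Src added after its values were seen. The members and lists were chosen with earlier results of these data known.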

Additional observations from a re-analysis of the deposited data

How the results depend on the processing

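The count of called members was 0 under every alternative for the Notch2 mutation with Hes1 deletion, the 3 Hes1 comparisons and the interaction. With Hes1 loxP it was 3 without a filter (Rac2, Pstpip1 and Gsn). For the averaged Notch2 comparison it was 1 as reported, 2 without a filter, 0 with a mean count of at least 50 (Rac2 adjusted p = 0.0508 by edgeR), 0 with the stromal covariate, and 0 to 1 with each library left out.

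Over all genes, no filter gave 657 calls for the Notch2 mutation with Hes1 loxP (104 as reported), 138 with Hes1 deletion (2), 135 and 110 for Hes1 deletion in wild type and in the Notch2 mutant (5 each), 63 for the interaction (0), 853 for the Notch2 average (253) and 184 for the Hes1 average (11). DESeq2 gave 242 for the Notch2 mutation with Hes1 loxP, 10 for Hes1 deletion in wild type, 420 for the Notch2 average and 20 for the Hes1 average. A mean count of at least 50 gave 1 for Notch2 with Hes1 deletion, 2 and 2 for Hes1 deletion in wild type and mutant, and 6 for its average. limma-voom gave 1 for Notch2 with Hes1 deletion and 3 for Hes1 deletion in the mutant. The stromal covariate gave 2, 0, 3, 3, 0 and 3 calls for Notch2 with Hes1 loxP, Notch2 with Hes1 deletion, Hes1 deletion in wild type, in the mutant, the Notch2 average and the Hes1 average. With each library left out the counts ranged from 26 to 289, 0 to 5, 3 to 26, 3 to 6, 0 to 12, 63 to 319 and 6 to 16, for Notch2 with Hes1 loxP, with Hes1 deletion, Hes1 deletion in wild type, in the mutant, the interaction and the 2 averages. The cause of these shifts was not tested.

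With the replicate block, 1 member was called in the averaged Notch2 comparison and 0 elsewhere, and the all-gene counts were 148 with Hes1 loxP and 325 averaged, so the block, which pairs samples by number only, moved no count by over 1.5 times. Among the genes named with their tests it ended 1 call, that of Ptk2 in the averaged Notch2 comparison (adjusted p = 0.0540 by edgeR). For 287 gene differences (the members and the 4 other called genes in the 7 comparisons), the alternatives gave 5617 values, of which 50 lost and 8 gained a call. None of the 163 values called in the reported or the alternative fit changed sign, while 333 of the 5454 called in neither did, all of them for differences within 0.0731 of 0 on the log2 scale as reported. The lowest count of a member in any library was 364, for Svil.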
